A study of Homo sapiens with 40 samples.

Results

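The genes of cholesterol and fatty acid synthesis were followed through 40 microarrays of LNCaP prostate cancer cells, in which androgen receptor signalling had or had not been blocked with MDV3100. The set held 33 genes, 20 of the sterol branch and 13 of the fatty acid branch. A gene was measured where at least 1 probe set was paired with it alone in the platform annotation, and the brightest such probe set stood for the gene. This left 29 genes, 18 sterol and 11 fatty acid, among the 11853 genes tested over the whole array. FDFT1, CYP51A1, FADS1 and ACSL3 had no probe set of their own and were not analysed here, and the filter on low signals removed no further member.

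LNCaP is an established, androgen-responsive line of human prostate cancer, and MDV3100, later named enzalutamide, is an antagonist of the androgen receptor. The study used 3 control LNCaP lines labelled as sensitive to the drug (control 1, whose title reads D+E-, control 2, D+R-, and control 3, M+R-) and 7 clones labelled as resistant to it (clones 1, 9, 10, 14, 15, 19 and 24). Every line was grown in RPMI-1640 with fetal calf serum for 3 days and then given 10 µM MDV3100 or 0.1% DMSO, its solvent, for 24 h, and each condition was hybridised as replicate 1 and replicate 2. That made 6 control and 14 clone arrays under each treatment. Below, a culture means the DMSO and MDV3100 arrays that share a line and a replicate number. The labels do not say how the clones were derived, nor whether the 2 replicates of a line came from separate cultures, so p-values measure the spread between lines and between these arrays, part of which may be technical.

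Cells make cholesterol from acetyl-CoA through mevalonate, squalene and lanosterol, and they make fatty acids from the same precursor through malonyl-CoA. Both routes are driven by the sterol regulatory element binding proteins, with SREBF2 weighted to the sterol genes and SREBF1 to the fatty acid genes. These factors are held in the endoplasmic reticulum by INSIG proteins when sterol is plentiful, and in promoters they often act beside the CCAAT-binding factor NF-Y. Androgen is known to raise lipid synthesis in prostate cancer cells, which is the background to reading these genes under an androgen receptor antagonist.

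The RefSeq promoters of GRCh38.p14, from 250 bases before to 50 bases after each start, were searched for 2 known elements. Both strands were searched for the sterol regulatory element TCACNCCAC and for the NF-Y box CCAAT. Promoters were found for 30 of the member genes, 43 promoters in all. The NF-Y box was in 28 of the 43 (65.1%), against 34.6% of all 35116 promoters, and the sterol regulatory element was in 2 of the 43 (4.65%), against 1.13% of all promoters. The genes with the sterol regulatory element were SREBF2 and ACSL1. ELOVL7 and SREBF1, both called in fits below, held neither motif in this window. A match describes the sequence only, and the 2 motifs do not overlap each other. Stretches of 80 bases are printed for SREBF2, which holds both motifs, and for TM7SF2, STARD4 and SCD5, which are among the members called below and hold an NF-Y box. They are read 5′ to 3′ on the strand of the gene, and capitals mark the motifs, where ATTGG is the NF-Y box on the opposite strand.
SREBF2 (chr22:41832955-41833034, plus strand): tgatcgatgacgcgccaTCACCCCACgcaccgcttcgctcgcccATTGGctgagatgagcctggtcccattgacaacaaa
TM7SF2 (chr11:65111762-65111841, plus strand): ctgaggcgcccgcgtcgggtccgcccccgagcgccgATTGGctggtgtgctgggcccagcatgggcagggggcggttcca
STARD4 (chr5:111512641-111512720, minus strand): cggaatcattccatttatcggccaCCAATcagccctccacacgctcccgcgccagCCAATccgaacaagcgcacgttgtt
SCD5 (chr4:82798892-82798971, minus strand): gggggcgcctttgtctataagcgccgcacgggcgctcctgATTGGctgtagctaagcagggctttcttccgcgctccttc

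The arrays carried the profile of prostate luminal cells: 6 of 8 luminal markers were measured and all 6 passed the filter, FOLH1 at a signal of 814.4 to 1469.8. Of 21 markers of other cell types, 20 were measured and 6 passed the filter. These were ALB (signals of 4.5 to 610.8), COL1A1 (65.2 to 347.9), VWF (1.5 to 126.2), COL3A1 (5.6 to 54.1), PDGFRB (5.1 to 28.6) and APOA1 (3.8 to 27.8). The summed adipocyte markers reached at most 26.8, with ADIPOQ at 0 on 2 arrays. Line profiles did not carry over from replicate 1 to replicate 2. Over all genes, the mean profile of control 2 in replicate 2 was closest to that of clone 1 in replicate 1 (r = 0.75, against -0.33 for its own label), and clones 9 to 24 had r of -0.43 to -0.72 with their own label. These are descriptions across 11853 genes, which are not independent replicates. In contrast, the DMSO and MDV3100 arrays of one line and replicate deviated together (r of 0.48 to 0.87 over 20 pairs). In replicate 2, control 3 was closest to clone 15 of replicate 1 (r = 0.63) and clone 1 to clone 19 (r = 0.74), and clone 1 lay apart from the other clones for several members below. Results are therefore given for line means over both replicates, for each replicate alone, and without control 2 and clone 1, a choice made after the data had been seen. Because clone 1 stood apart for some of these same members, a call made only without these lines is a description and no independent support. Whether the replicate 2 arrays carry the right line labels was not tested, and every line mean and every difference between classes in replicate 2 rests on those labels.

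Basal levels varied about as much as over the array, with 13 of 29 members above the median SD of all genes, and the range from gene to gene was wide. Over the 20 DMSO arrays, MSMO1, which removes methyl groups from the sterol ring, ran from 1969.5 to 2597.7 (1.32-fold), and SCD, the main desaturase that makes oleate, from 2516.9 to 3474.8 (1.38-fold). At the other end stood FADS2, a desaturase of polyunsaturated fatty acids, with signals of 36.8 to 692 (18.8-fold). STARD4, a carrier of cholesterol between membranes, ran from 13.7 to 233.7 (17.1-fold), and SCD5, a desaturase related to SCD, from 31.4 to 298.6 (9.51-fold). The median SD of log2 level was 0.26 over the 29 members and 0.28 over all genes. Levels are compared within a probe set only, since brightness is not comparable between probe sets.

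**Figure D1:**
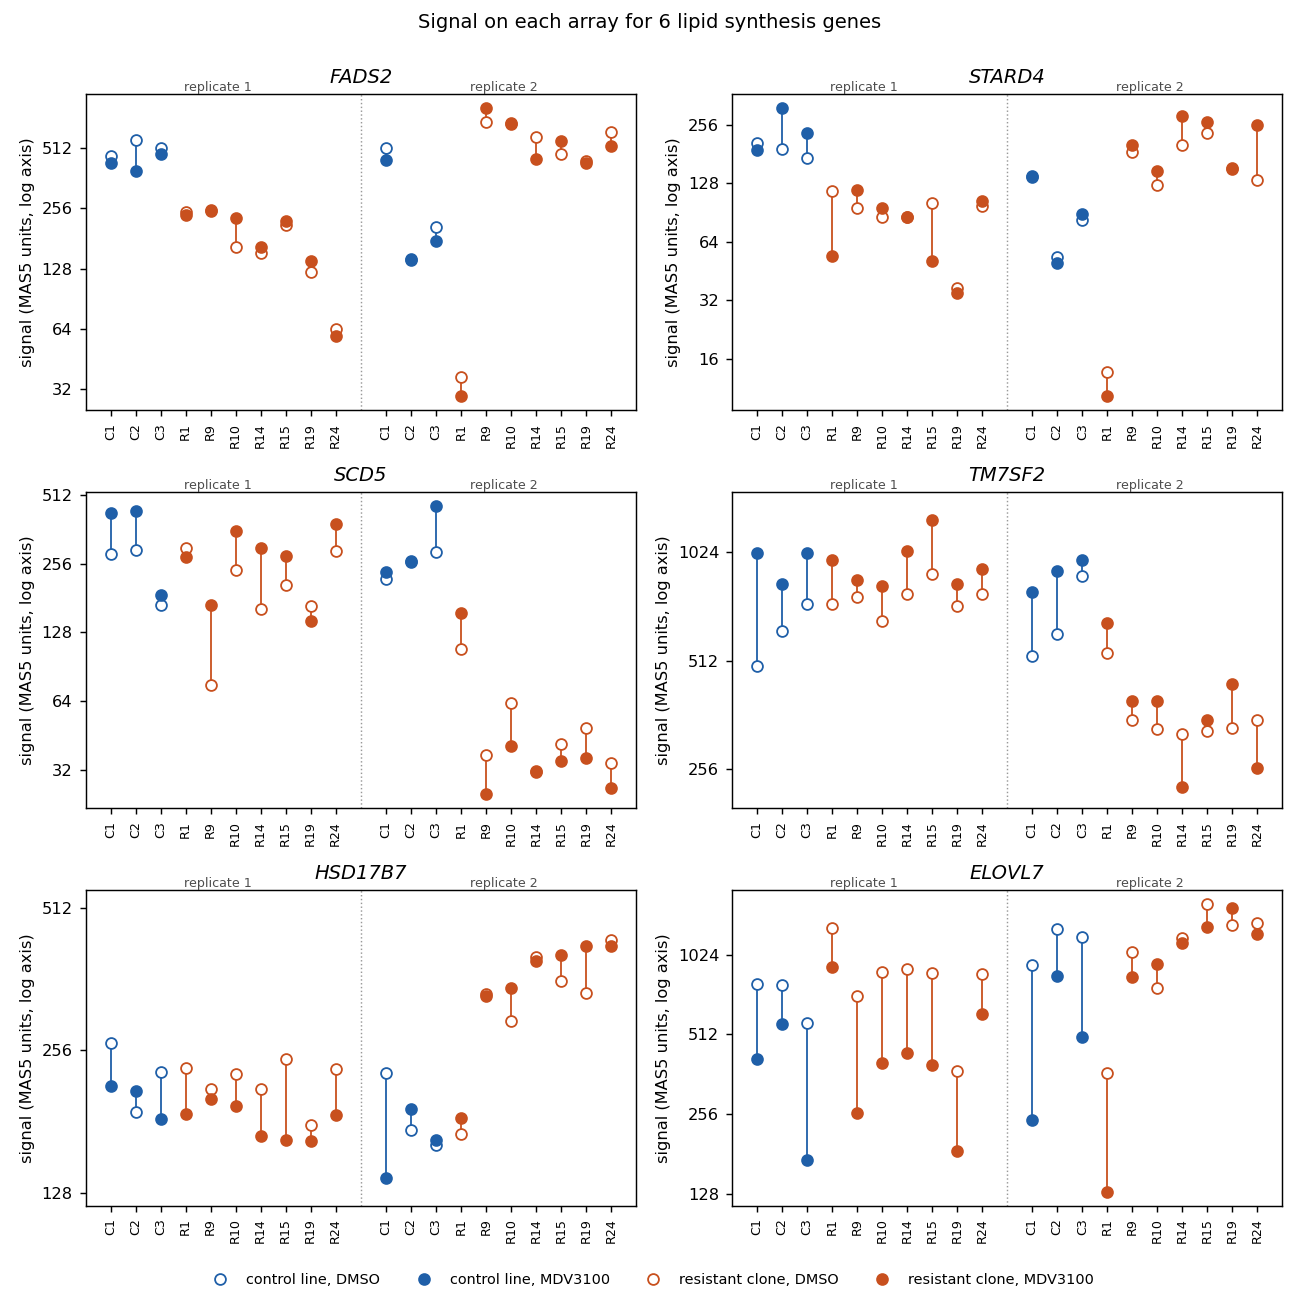
Signal on each of the 40 arrays (vertical, MAS5 units, log axis) for 6 genes, by line (C, control lines; R, resistant clones), with replicate 1 left and replicate 2 right of the dotted line; open points are DMSO, filled points MDV3100 and a line joins the pair of a culture. FADS2 and STARD4 are lower in all 7 clones than in the 3 control lines in replicate 1 and overlap in replicate 2, while SCD5 is below the control lines in all 7 clones in replicate 2, where clone 1 is the highest clone at 108.6 in DMSO.

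The first question was how the pathway answered the drug in the sensitive control lines. In line means, 3 of the 29 genes changed: ELOVL7 and IDI1 fell and TM7SF2 rose. That is 10.3% of the members, against 6.06% of all genes tested. The sterol genes leaned down by a small amount, with a median log2 change of -0.15 over 18 genes, 15 of them negative. Over all genes the median was 0.01 and 47.9% were negative. The fatty acid genes had a median of -0.09, with 7 of 11 negative.

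ELOVL7, an elongase of long-chain saturated fatty acids, gave the largest change. In replicate 1 its signal went from 791.6, 784.5 and 566.5 in DMSO to 414.4, 560.9 and 172 in MDV3100 in control 1, 2 and 3. In replicate 2 it went from 937.9, 1282.2 and 1190.2 to 244.7, 850.5 and 499.4. The drug value was the lower one in 6 of 6 pairs, and the DMSO and drug signals did not overlap within either replicate. ELOVL7 fell by 1.12 on the log2(signal + 16) scale (SE 0.16, n = 3 lines, limma adjusted p = 0.00388), and by 1.00 in replicate 1 (adjusted p = 0.0465). Replicate 2 gave -1.23 and was not called (adjusted p = 0.0589). Alone among the members ELOVL7 was called in replicate 1, 3.45% of them against 1.18% of all genes, and no member was called in replicate 2, against 0.118% of all genes. Without control 2 the change was -1.41 (limma adjusted p = 0.00259), and ELOVL7 was then the 1 member called in each replicate, where 1.91% and 1.21% of all genes were. Control 2 had the smallest ELOVL7 fall of the 3 lines in each replicate, so leaving it out enlarges the mean fall. The call was lost with a pseudocount of 1, with an intensity trend in the variance and with line as a block (adjusted p = 0.0599, 0.0583 and 0.303). The androgen-responsive genes KLK2, TMPRSS2 and FKBP5 fell in the same fits, by 1.50, 1.05 and 0.65.

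TM7SF2, a reductase late in cholesterol synthesis, rose, while 15 of the 18 sterol genes had negative values. STARD4 (0.16) and HMGCS1 (0.05) were the other positive ones, neither called. In DMSO it was 493.1, 619.1 and 732.9 in replicate 1 and 525.8, 607.4 and 875.1 in replicate 2. In MDV3100 it was 1015.6, 834.2 and 1018.8, and then 790.7, 904.7 and 973.5. Every pair of a control line showed the higher signal in the drug. The rise was 0.53 (SE 0.11, n = 3, limma adjusted p = 0.0203), 0.64 in replicate 1 and 0.43 in replicate 2, neither of which passed alone (adjusted p = 0.121 and 0.365). Leaving out control 2 gave 0.55 with an adjusted p of 0.0875, and the call was also lost with a pseudocount of 1, no filter, an intensity trend or line as a block (adjusted p of 0.0554 to 0.168). With replicate as a block TM7SF2 and ELOVL7 were called, 6.9% of members against 2.58% of all genes.

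IDI1, the isomerase that makes dimethylallyl diphosphate, fell by 0.36 in line means (SE 0.09, n = 3, limma adjusted p = 0.0438), but its cultures did not move together. In replicate 1 the signal was 1159.9 in DMSO and 639.1 in MDV3100 in control 1, 1918.4 and 868.8 in control 2, and 1642.1 and 1894.8 in control 3. In replicate 2 it changed from 1984.1 to 2052.9, from 1900.2 to 2480 and from 2481.8 to 1414. So 3 of 6 pairs lay between -0.80 and -1.13 and the other pairs between 0.05 and 0.38, which averaged to much the same value in each line. With the 6 pairs as replicates the limma adjusted p was 0.396, and the call was lost in either replicate alone and on leaving out any 1 control line. The mean of all its probe sets gave -0.16 (adjusted p = 0.308). The probe set of IDI1 is of a type that can cross-hybridise.

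Several other sterol genes dropped in the same cultures as IDI1. FDPS, which joins isoprene units into farnesyl diphosphate, changed by -0.62 and -0.65 in control 1 and control 2 of replicate 1 and by -0.37 in control 3 of replicate 2. EBP, a sterol isomerase, changed by -0.38, -0.51 and -0.54 in those cultures, and both genes lay between 0.02 and 0.21 in the others. The ratio of the 3′ to the 5′ actin probe sets is a sign of RNA integrity. On the control arrays of replicate 1 it was 4.26 to 6.59 in MDV3100 and 3.18 to 4.12 in DMSO. In replicate 2 the ranges overlapped, at 3.36 to 3.95 in MDV3100 and 3.30 to 3.70 in DMSO. The GAPDH ratio overlapped in replicate 1, at 1.18 to 1.47 in MDV3100 and 1.26 to 1.31 in DMSO. The part of RNA integrity in these changes was not tested. SQLE, the squalene epoxidase, had the next largest difference of the branch at -0.29, below the call.

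Among the fatty acid genes other than ELOVL7, none was called in the control lines. SCD5 had the next largest value, 0.33 (SE 0.09, n = 3, limma adjusted p = 0.0576), with 6 of 6 pairs higher in the drug. The enzymes that build palmitate had smaller values: -0.18 for FASN, the fatty acid synthase, -0.16 for ACACA, which makes malonyl-CoA, and 0.03 for ACLY, which supplies acetyl-CoA. SREBF1 had 0.10 and SREBF2 -0.03. Without control 2 and clone 1, ELOVL7 alone of the 29 was called in line means (3.45% of members, 2.95% of all genes).

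**Figure D2:**
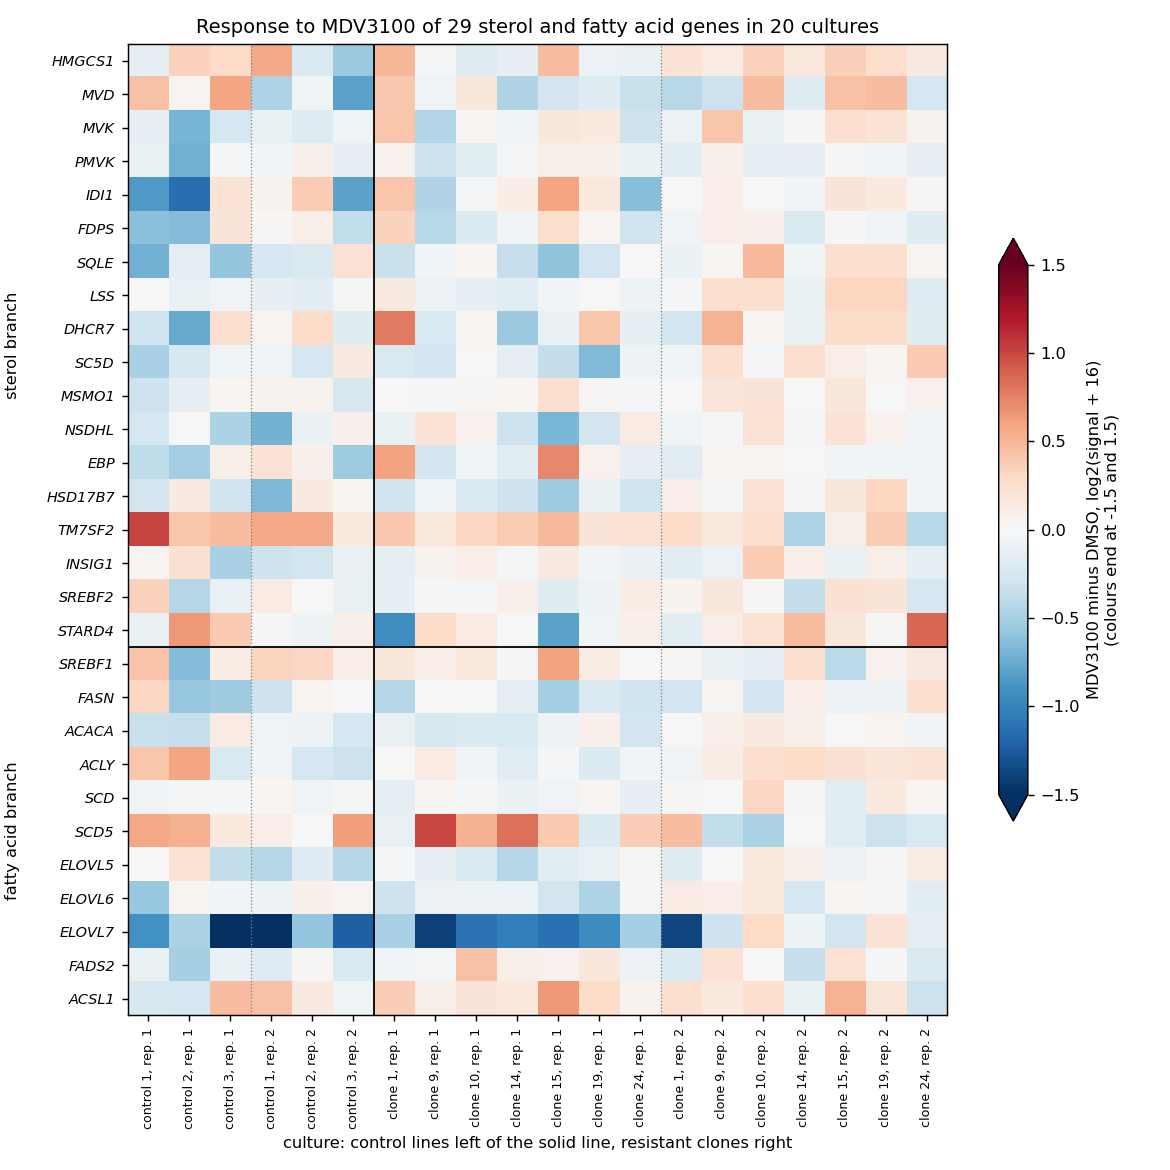
Response to MDV3100 in each of 20 cultures (MDV3100 minus DMSO, log2(signal + 16)) for 18 sterol genes above and 11 fatty acid genes below the solid horizontal line, control lines left and resistant clones right of the solid vertical line, with the replicates split by dotted lines. ELOVL7 is lower with the drug in all 6 control cultures and in 7 of 7 clones of replicate 1, and TM7SF2 is higher in all 6 control cultures.

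The next question was whether the clones labelled resistant still answered the drug. In line means only ELOVL7 was called among the members (3.45%, against 0.506% of all genes). It fell by 0.59 (SE 0.08, n = 7, limma adjusted p = 0.0191), and the 2 replicates gave different pictures. In replicate 1 the 7 clones ran from 372.3 through a median of 871 to 1286.4 in DMSO and from 186.1 through 399.5 to 917.1 in MDV3100. All 7 clones were lower in the drug there, at -0.48 to -1.40, as the 3 control lines were. The mean fall of 0.94 (SE 0.11, adjusted p = 0.00374) was close to the 1.00 of the control lines, with a difference of 0.06 (SE 0.24, adjusted p = 0.906).

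In replicate 2 the clones' ELOVL7 ran from 365.3 through 1186.8 to 1587.1 in DMSO and from 131 through 1127.9 to 1531.1 in the drug. Clone 1 fell by 1.38 and the other clones lay between -0.31 and 0.30, with a mean of -0.24 over all 7 (SE 0.17, adjusted p = 0.665). The difference from the control lines in replicate 2 was 0.99 (SE 0.33, limma adjusted p = 0.271), and it was 1.50 (SE 0.21, adjusted p = 0.00985) without control 2 and clone 1. There control 2 had the smallest fall of the control lines and clone 1 the largest of the clones. Leaving both out therefore widens the difference by construction. The difference between replicates in the clones' response was 0.70 (SE 0.23) and was not called (adjusted p = 0.215), nor was any other member in that test (0.0422% of all genes). The call in line means was also lost without clone 9, 14 or 15, at adjusted p of 0.0519 to 0.0574, with an intensity trend (0.157) and with line as a block (adjusted p = 1). It was kept with the pairs as replicates (limma adjusted p = 0.0418, 1.37% of all genes called), and without clone 1 (-0.53, adjusted p = 0.0333, 0.219% of all genes called).

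TM7SF2 was the other gene called in the clones, in replicate 1 alone. All 7 clones rose there, from 657, 765.2 and 890.9 (lowest, median and highest) in DMSO to 821.1, 915 and 1252.1 in the drug, a mean of 0.31 (SE 0.06, limma adjusted p = 0.0346). In replicate 2 the mean was 0.04, with 5 clones up and 2 down. With 2 members called, 6.9% of the set passed in replicate 1 against 1.89% of all genes, and without clone 1 ELOVL7 alone was called there (2.26% of all genes). No gene of the whole array was called in the clones in replicate 2, where 1216 had an unadjusted p under 0.05 and 2 of these were members.

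In the clones the sterol branch leaned opposite ways in the replicates. Its median was 0.01 in line means, -0.04 in replicate 1, with 12 of 18 genes negative, and 0.07 in replicate 2, with 15 of 18 positive. Over all genes the medians were -0.00, 0.01 and -0.00, and 48.1% and 51.6% were negative in the 2 replicates. The fatty acid median was -0.00. HMGCS1, which makes HMG-CoA, ran in the clones of replicate 2 from 758.6 through 1047.5 to 1114.1 in DMSO and from 971 through 1209.8 to 1346.4 in the drug. Those ranges overlapped, and line means gave 0.15 (SE 0.06, limma adjusted p = 0.251). ACSL1, which activates long-chain fatty acids, ran in replicate 1 from 1463.8 through 1547 to 1864.9 and from 1523.3 through 2056.5 to 2431.1, with 0.19 over line means (SE 0.07, adjusted p = 0.230), and was not called either. Culture by culture, the sterol median ran from -0.09 to 0.20 over the 14 clone cultures and from -0.20 to 0.01 over the 6 control cultures, so the ranges overlapped.

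**Figure D3:**
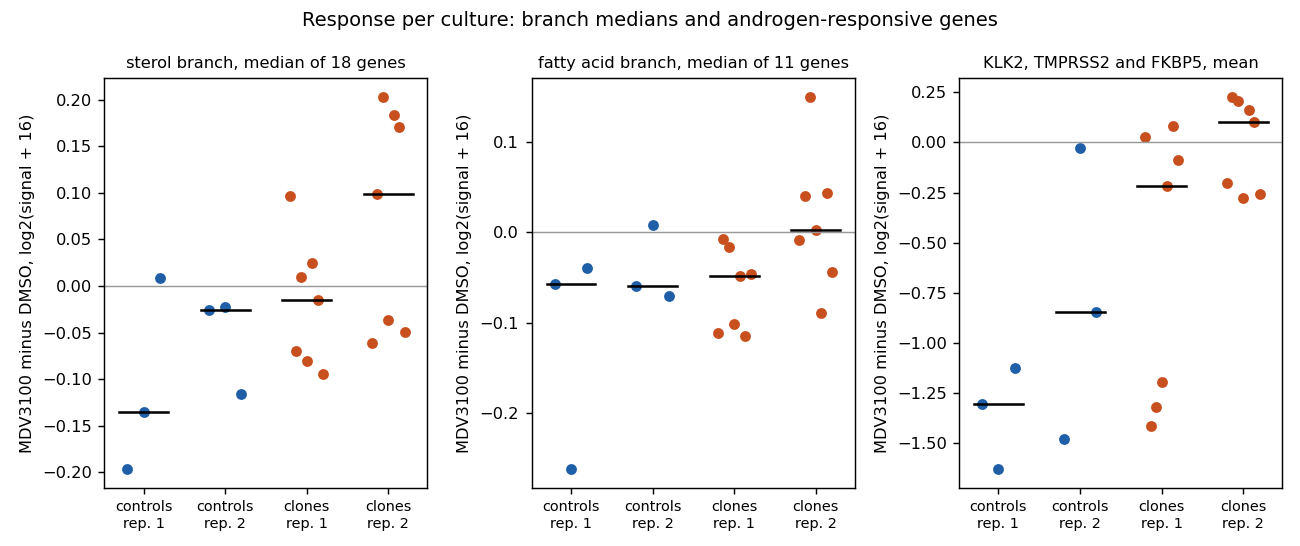
Response to MDV3100 per culture (MDV3100 minus DMSO, log2(signal + 16)) as the median of 18 sterol genes, the median of 11 fatty acid genes and the mean of KLK2, TMPRSS2 and FKBP5; each point is a culture, control lines blue and clones orange, and the black bar is the median of the points. The vertical scales differ between panels: sterol medians stay between -0.20 and 0.20, while the androgen-responsive genes lie between -0.84 and -1.63 in 5 of 6 control cultures and between -1.20 and -1.42 in clones 9, 10 and 14 of replicate 1.

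The androgen-responsive genes put these small shifts in scale. Their mean response was -1.12 to -1.63 in the control lines of replicate 1 and -1.48, -0.03 and -0.84 in control 1, 2 and 3 of replicate 2. Clones 9, 10 and 14 had -1.42, -1.32 and -1.20 in replicate 1, inside the range of the control lines, and 0.23, 0.20 and -0.28 in replicate 2. The ELOVL7 response of those 3 clones in replicate 1 was -1.40, -1.11 and -1.03. In clones 15, 19, 1 and 24 it was -1.11, -0.94, -0.48 and -0.50, beside androgen-responsive means of -0.22, 0.08, 0.03 and -0.09. Clones 1 and 24 thus had the smallest ELOVL7 falls of the 7, and a relation between the measures was not tested.

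The test of the difference itself, the clones' response minus that of the control lines, called none of the 29 genes in line means, where 0.717% of all genes were called. At an unadjusted limma p under 0.05 there were 3 of 18 sterol genes and 1 of 11 fatty acid genes, beside 1747 of all 11853 genes. IDI1 had the smallest p, with a difference of 0.40 (SE 0.13, limma adjusted p = 0.162), and TM7SF2 had -0.36 (SE 0.12, adjusted p = 0.191). The difference for ELOVL7 was 0.53 (SE 0.19, adjusted p = 0.210). No member was called in replicate 1 (0.00844% of all genes, with or without control 2 and clone 1) or in replicate 2 (0 genes). Direction leaned one way in the sterol branch, where 16 of 18 differences were positive with a median of 0.13, beside a median of -0.00 and 50.7% negative over all genes. These differences share the control lines with the response above. In line means the clones' sterol median was 0.01, so the lean is mostly that of the control lines and no separate observation. In replicate 2 the clones leaned up as well (median 0.07, 15 of 18 positive), beside -0.08 in the control lines. Without control 2 and clone 1, ELOVL7 was called (difference 0.88, limma adjusted p = 0.0249), 3.45% of members against 0.911% of all genes. It was the 1 member called in replicate 2 as well (1.2% of all genes). In line means too, control 2 had the smallest control fall and clone 1 the largest clone fall, so this fit widens the ELOVL7 difference by construction. Leaving out control 2 alone gave 0.82 (adjusted p = 0.0381), and leaving out clone 1 alone called no member (0.92% of all genes).

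Levels in DMSO ask whether the clones started from a different lipid programme. Over line means no member was called (0.118% of all genes were). An unadjusted limma p under 0.05 was found for 5 of 18 sterol and 3 of 11 fatty acid genes, beside 2880 of all 11853 genes. Behind this lay replicates that differed. In replicate 1, STARD4 and FADS2 were lower in the clones, 6.9% of members against 6.12% of all genes. In replicate 2, LSS, DHCR7, TM7SF2, ACACA and SCD5 were lower, 17.2% against 10.3% of all genes. No gene was on both lists, and no member was called higher in either.

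FADS2 stood at 465.6, 560.9 and 510.7 in control 1, 2 and 3 of replicate 1, and at 64, 163.8 and 252.1 in the lowest, median and highest clone. The groups did not overlap, and the difference was -1.58 (SE 0.32, limma adjusted p = 0.0222). In replicate 2 the controls were 510.2, 141.5 and 207.8 and the clones ran from 36.8 through 581.8 to 692, a difference of 0.66 (SE 0.71, adjusted p = 0.525). There the groups overlapped, with clone 1 below every control and the other 6 clones between 440.9 and 692. The line means therefore gave -0.46, which describes neither replicate.

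STARD4 followed the same course. Its control signals in replicate 1 were 206.4, 192 and 173.4 and its clone signals 36.9, 95.8 and 117.3 (lowest, median, highest), without overlap, for a difference of -1.03 (SE 0.23, limma adjusted p = 0.0317). In replicate 2 the controls had 139.6, 53.3 and 82.8 and the clones 13.7, 151.1 and 233.7, with an overlap and a difference of 0.47 (SE 0.55, adjusted p = 0.553). Clone 1 was again the lowest of all 10 lines, at 13.7. Without control 2 and clone 1, FADS2 was still called in replicate 1 (-1.61, adjusted p = 0.0470, 4.86% of all genes called) and STARD4 was not (-1.09, adjusted p = 0.0583). The change between replicates was 2.23 for FADS2 (SE 0.88, adjusted p = 0.0912) and 1.50 for STARD4 (SE 0.64, adjusted p = 0.114), neither called.

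SCD5 was the gene with the widest gap in replicate 2. The controls had 219.4, 261.3 and 288.9 and the clones 31.4, 41.6 and 108.6 (lowest, median, highest), with no overlap and a difference of -2.07 (SE 0.26, limma adjusted p = 0.0114). In replicate 1 the controls had 281.6, 294.3 and 167.8 and the clones 75.5, 206.2 and 298.6, overlapping, with -0.31 (SE 0.34, adjusted p = 0.593). The change between the replicates was itself called, at -1.76 (SE 0.34, adjusted p = 0.0109). Over line means SCD5 gave -1.19 (SE 0.24, adjusted p = 0.0545). With the arrays as replicates and replicate as a block it alone of the members passed (adjusted p = 0.0447, 1.8% of all genes). Without control 2 and clone 1 it gave -1.24 (adjusted p = 0.0175, 5.36% of all genes). Without clone 1 alone it gave -1.32 (adjusted p = 0.00245), and LSS, HSD17B7 and SREBF1 were called too, 13.8% of members against 17.9% of all genes.

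Of the sterol genes called lower in the clones of replicate 2, LSS closes squalene epoxide into lanosterol, and it was 632.1, 803 and 617.8 in the controls against 307.3, 377 and 492.2 in the clones, -0.82 (SE 0.15, limma adjusted p = 0.0174). DHCR7, which carries out the last step of one arm, was 360.2, 337.7 and 384.3 against 156.5, 183.1 and 283.6, -0.83 (SE 0.17, adjusted p = 0.0235). Neither pair of groups overlapped. Other sterol genes lay on the other side there, SC5D at 0.56 and HSD17B7 at 0.75, neither called with all lines. In replicate 1 both genes overlapped between the classes, with differences of 0.16 and 0.05.

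TM7SF2 and ACACA completed that list. TM7SF2 ran at 525.8, 607.4 and 875.1 in the controls of replicate 2 and at 320.5, 334 and 536 in the clones, where clone 1 alone reached the range of the controls, for -0.84 (SE 0.18, limma adjusted p = 0.0278). In replicate 1 it had the opposite sign, 0.32 (SE 0.12, adjusted p = 0.131). ACACA was 0.48 lower in the clones of replicate 2 (SE 0.13, adjusted p = 0.0437) and had 0.14 in replicate 1. LSS, ACACA, SREBF1 and the other genes outside the rule stated with the methods are named after their values were seen.

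The replicate change of the clones-minus-controls difference was called for 6 members, all downward from replicate 1 to replicate 2: SCD5, TM7SF2, LSS, DHCR7, ACSL1 and ACACA, from -0.63 to -1.76. That is 20.7% of members, and over the array 18.1% of genes were called in this test, which was added after the data had been seen. Without control 2 and clone 1, replicate 2 alone called 9 members (31%, against 18.6% of all genes), which were LSS, DHCR7, TM7SF2, SREBF1, ACACA, SCD5 and ACSL1 lower and SC5D and HSD17B7 higher. Whether a replicate marks a batch, a passage or another difference is not stated in the labels. On the DMSO arrays of the clones the actin ratio was 3.39 to 4.77 in replicate 1 and 2.69 to 3.48 in replicate 2, and its part was not tested.

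**Figure D4:**
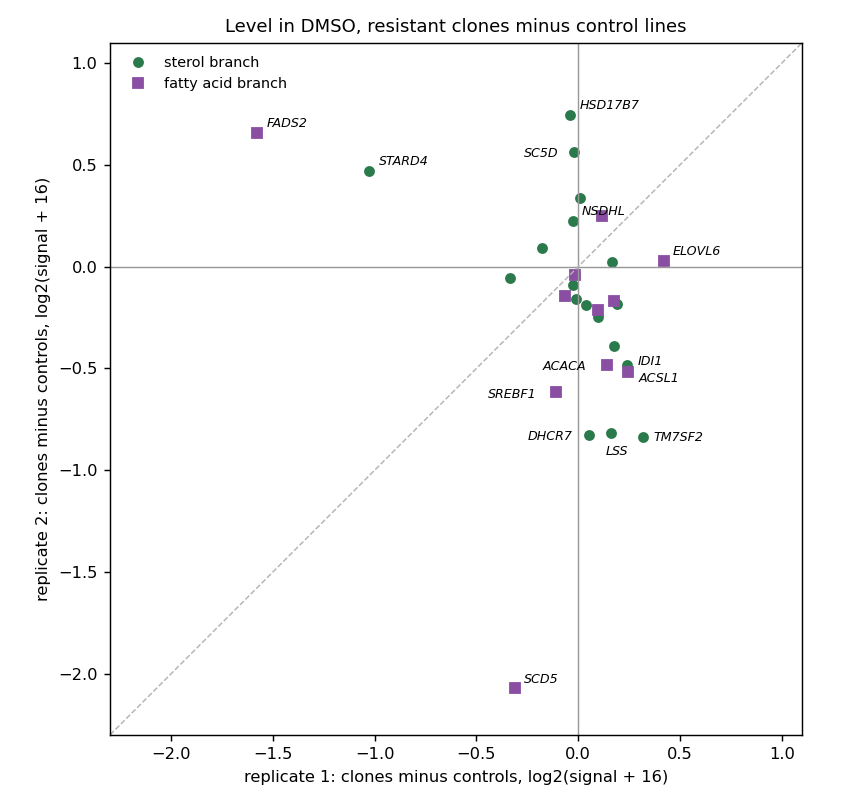
Difference in DMSO level between the 7 resistant clones and the 3 control lines (log2(signal + 16)) in replicate 1 (horizontal) and replicate 2 (vertical) for 18 sterol genes (circles) and 11 fatty acid genes (squares); the dashed line marks equal values. FADS2 (-1.58 and 0.66) and STARD4 (-1.03 and 0.47) lie upper left, SCD5 (-0.31 and -2.07) lies far below, and most genes lie between -0.5 and 0.5 on both axes.

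The count of genes whose 7 clones all lay on one side of the 3 controls gives the same picture without a model. In DMSO this held for 3 of 29 members in replicate 1 (10.3%, against 12.1% of all genes), which were FADS2 and STARD4 below and ELOVL6, an elongase of palmitate, above. It held for 5 members in replicate 2 (17.2%, against 13.1%), with PMVK, a kinase of the mevalonate steps, above and LSS, DHCR7, ACACA and SCD5 below. In MDV3100 it held for 2 members in replicate 1 (6.9%, against 11.3%) and for 7 in replicate 2 (24.1%, against 14.9%). The shares in replicate 1 were no larger than over the array. No member was on a list in both replicates.

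Under the drug, line means called 3 members between clones and controls, TM7SF2 and SCD5 lower and HSD17B7 higher in the clones. This was 10.3% of members against 8.96% of all genes, so the share was near that of the array. All 3 differences came from replicate 2. SCD5 was 235.6, 262.8 and 456.5 in the controls there and 25.1, 35.1 and 155.9 in the clones (lowest, median, highest), with no overlap, and the clones lay 2.48 lower (SE 0.39, limma adjusted p = 0.0104). In replicate 1 its groups overlapped, at -0.33, and the line means gave -1.40 (SE 0.23, adjusted p = 0.0109). That call was lost without control 1 (adjusted p = 0.0739) and was the 1 member kept with replicate as a block (adjusted p = 0.0348, 3.72% of all genes).

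TM7SF2 under the drug was 790.7, 904.7 and 973.5 in the controls of replicate 2 and 229.1, 394.8 and 652.4 in the clones, without overlap. The difference was -1.23 (SE 0.26, limma adjusted p = 0.0190) there and -0.01 in replicate 1, where the clones ran from 821.1 to 1252.1 and the controls from 834.2 to 1018.8. Line means gave -0.62 (SE 0.14, adjusted p = 0.0249). With replicate as a block the adjusted p was 0.0822, and it was 0.0570 to 0.103 when any 1 control line was left out.

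HSD17B7, which removes a keto group during sterol demethylation and also reduces estrone, was higher in the clones by 0.44 in line means (SE 0.12, limma adjusted p = 0.0398). In replicate 2 the controls had 137.7, 192.7 and 165.4 and the clones 183.8, 395.5 and 425.2, and clone 1 alone overlapped the controls, with the other 6 clones at 333.6 or above. That difference was 1.02 (SE 0.23, adjusted p = 0.0209). In replicate 1 it was -0.15, with 164.8 to 201.6 in the clones and 183.5 to 215.7 in the controls. The call did not hold with replicate as a block (adjusted p = 0.169), with no filter (0.0524) or without any 1 line other than clone 1, and this probe set, the only one for the gene, is of a type that can cross-hybridise.

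Replicate 2 alone called 9 members under the drug (31%, against 19.6% of all genes). The sterol genes LSS, DHCR7 and TM7SF2 were lower, and SC5D, NSDHL and HSD17B7 higher, by 0.52 to 1.02. SC5D and NSDHL act beside HSD17B7 and DHCR7 in the late steps, so members of one stretch of the route differed in both directions. Of the fatty acid genes SREBF1 and SCD5 were lower and ELOVL5, an elongase of polyunsaturated fatty acids, was higher by 0.61. Replicate 1 alone called STARD4 (-1.53, limma adjusted p = 0.0131) and FADS2 (-1.25, adjusted p = 0.0373), 6.9% of members against 9.01% of all genes, and neither was called there without control 2 and clone 1 (adjusted p = 0.125 and 0.160).

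Without control 2 and clone 1, line means under the drug called 7 members (24.1%, against 14.5% of all genes). These were SCD5, TM7SF2 and SREBF1 lower and HSD17B7, NSDHL, ELOVL5 and ELOVL7 higher in the clones. ELOVL7 was 1.02 higher (adjusted p = 0.00933, limma), against 0.53 with all lines (adjusted p = 0.249). Replicate 2 alone then called 10 members (34.5%, against 29.6% of all genes). Leaving out clone 1 alone also called 7 members, against 18.6% of all genes. As branches the line means gave a median of 0.12 for the sterol genes and -0.02 for the fatty acid genes, beside -0.01 over all genes. In these bulk arrays, fewer cells with a gene active and less RNA per cell cannot be told apart.

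Where a member had other probe sets of its own past the filter, these mostly pointed the same way, with exceptions. IDI1 gave -0.36 and -0.31 in the control response on its 2 bright probe sets, and -0.10 and 0.14 on its 2 dim ones. HMGCS1 gave 0.05 on the brightest probe set and -0.39 on a dimmer one, and ACACA in DMSO gave -0.17 and 0.12, so the direction of these was set by the choice of probe set. DHCR7 gave -0.39 and -0.21 in DMSO. SREBF1 gave -0.40 and -0.30 under the drug. TM7SF2, HSD17B7, STARD4, ELOVL7 and SCD5 had 1 probe set past the filter, so nothing could be set beside them.

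The neighbours of the pathway were read from 5 lists. In the control lines the drug response called 2 of 8 measured genes of sterol uptake and sensing, with INSIG2, a sterol sensor partner, at 0.48 (SE 0.09, limma adjusted p = 0.0146) and NPC1, the lysosomal cholesterol exporter, at -0.50 (SE 0.11, adjusted p = 0.0261). Of 4 efflux genes and oxysterol receptors, ABCA1, which exports cholesterol from the cell, had 0.67 (SE 0.09, adjusted p = 0.00291). Of 16 other genes of fatty acid synthesis and supply, ELOVL2, an elongase of polyunsaturated fatty acids, had -0.94 (SE 0.16, adjusted p = 0.00999) and ACSL4, an acyl-CoA synthetase that prefers arachidonate, 0.58 (SE 0.12, adjusted p = 0.0203). None of 5 glycerolipid and 6 fatty acid oxidation genes was called. Replicate 1 alone called 1 of the 4 efflux genes and receptors higher (1.18% of all genes), and replicate 2 alone called none of these lists (0.118%). Over all genes 6.06% were called in line means and 2.58% with the pairs as replicates. With the pairs as replicates only ELOVL2 kept its call (limma adjusted p = 0.0170), and INSIG2, NPC1, ABCA1 and ACSL4 lost theirs (adjusted p = 0.0570, 0.0759, 0.0702 and 0.149). In the clones no gene of these lists was called in line means (0.506% of all genes were), and replicate 1 alone called 1 of 8 sterol genes higher (1.89%). The difference of responses called NPC1 alone (0.68, SE 0.13, limma adjusted p = 0.0339, 0.717% of all genes called). That call was lost with the pairs as replicates (limma adjusted p = 0.152).

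Between clones and controls in DMSO none of the 39 genes of these lists was called in line means (0.118% of all genes were). The replicates alone did call some. In replicate 2, 1 of 8 sterol genes was lower, 3 of 16 fatty acid genes lower and 1 higher, and 1 of 5 glycerolipid genes lower (10.3% of all genes). In replicate 1, 1 of 6 oxidation genes was lower (6.12% of all genes). With replicate as a block SCAP (-0.43, limma adjusted p = 0.0336) and CPT1A (-0.42, adjusted p = 0.0286) were called, beside 1.8% of all genes. Under the drug, NPC1 (0.68) and ACAT2 (0.41), which makes acetoacetyl-CoA, were higher in the clones. INSIG2 (-0.44), SCAP (-0.45), the escort of the SREBP proteins, ABCG1 (-0.96), ACSL4 (-0.74) and CPT1A (-0.34), which brings fatty acids into mitochondria, were lower. The limma adjusted p of these 7 ran from 0.0151 to 0.0406, so 7 of 39 stood beside 1062 of all 11853 genes (8.96%). Over all genes the fit with replicate as a block called 3.72%. With replicate as a block SCAP and ACSL4 kept their calls (adjusted p = 0.0235 and 0.0262), and NPC1, ACAT2, INSIG2, ABCG1 and CPT1A lost theirs (adjusted p of 0.0567 to 0.0923). Replicate 2 alone called 2 of 8 sterol genes lower, and 5 of 16 fatty acid genes lower and 1 higher. It also called 1 of 5 glycerolipid genes lower and, of 6 oxidation genes, 1 lower and 1 higher (19.6% of all genes). Replicate 1 alone called 1 sterol and 1 fatty acid gene higher (9.01% of all genes).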

How the data were processed

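The RNA of the 40 LNCaP samples was extracted with RNeasy Plus, amplified with NuGEN Ovation and hybridised to 1-colour arrays, per the labels' protocols. The deposited values are MAS5 signal intensities on a linear scale, per the submitters' processing notes, with no version given. Their 2% trimmed mean was 150.01 on the lowest array. Array medians ran from 10.7 to 18.4, and precision is set by how few lines there are.

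Intensities were taken as log2(signal + 16). Of 54675 probe sets, 41097 were paired with 1 gene, 1801 with several and 11777 with none. The 27338 whose mean reached the median of means (a signal of 12.1434) were kept, and the brightest for each gene gave 11853 genes. Limma 3.58.1 in R 4.3.3 (lmFit, eBayes) was run across all genes with Benjamini-Hochberg adjustment, and an adjusted p under 0.05 was a call. The replicate was the line, averaged over its arrays of one treatment, giving 3 control lines and 7 clones. Fits of each replicate alone, with arrays or pairs as replicates, and with other pseudocounts, filters, normalization and lines left out were alternatives. For levels, arrays as replicates were fitted with replicate as a block. For responses and their difference, pairs as replicates were fitted without a term for replicate. In both, the 2 values of a line counted as independent. On simulated data with 200 genes changed by 1 log2 unit, 93.5% were recovered in the control response over line means and 6.5% of calls were false. In replicate 1 and replicate 2 alone 71% and 59% were recovered. The simulated noise was normal and held no shift between replicates, unlike the arrays, so these rates need not hold for the real data.

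Same-numbered arrays of a line under DMSO and MDV3100 deviated together from their group means (r of 0.48 to 0.87, median 0.78, over 20 pairs), so responses were taken within line and replicate. Named were members called in any of the 5 comparisons over line means, the 2 of each branch with the largest difference in each comparison, and the 2 of each branch with the largest range in DMSO. Of the other pathway lists, called genes were named. The members and lists were chosen with earlier results of these data known.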

Additional observations from a re-analysis of the deposited data

Results flagged for a closer look

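For 10 members, 80 groups, each of 7 clones or of the 6 control arrays of a treatment, were examined for a value standing apart by Dixon's criterion. In 8 of them a value did. The nominal rate of 1 in 20 cannot be set against this, since the members were chosen for large differences or wide ranges and the groups share arrays. The control groups pooled both replicates while each clone group lay within 1 replicate, and all 8 were groups of clones. Clone 1 was the one apart in 7 of these. In replicate 2 its FADS2 signal in DMSO was 36.8 against 440.9 to 692 in the other clones, its SCD5 signal was 108.6 against 31.4 to 62.7 in DMSO and 155.9 against 25.1 to 40.5 in MDV3100, and its TM7SF2 signal in DMSO was 536 against 320.5 to 351.7. HSD17B7 in MDV3100 was 183.8 against 333.6 to 425.2, and the ELOVL7 response was -1.38 against -0.31 to 0.30. In replicate 1, clone 1 had a DHCR7 signal of 610.5 in MDV3100 against 256.1 to 396.8. The remaining value was STARD4 in clone 19, replicate 1, DMSO, at 36.9 against 86.1 to 117.3.

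The difference between clones and control lines in DMSO changed between the replicates for 6 genes in a limma test of the change itself, 20.7% of the 29 members against 18.1% of all genes. It was -0.98 for LSS (adjusted p = 0.00725), -0.88 for DHCR7 (0.0489), -1.15 for TM7SF2 (0.00759), -0.63 for ACACA (0.0200), -1.76 for SCD5 (0.0109) and -0.76 for ACSL1 (0.0287).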

How the results depend on the processing

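Of 368 alternative values of 20 named gene results, 364 kept their direction and 4 reversed: in replicate 1 alone DHCR7 (0.054) and HSD17B7 (-0.038) in DMSO and HSD17B7 in MDV3100 (-0.15), and in replicate 2 alone FADS2 in DMSO (0.66). Among the 368, 48 lost a call and 15 gained one. The 20 were chosen for a call or a large difference in line means, and most alternatives reuse the same arrays. A kept direction was therefore largely built in. STARD4 and TM7SF2 in DMSO, whose sign differed between replicates, were not among the 20. Members called in the control response (3) became 1 in replicate 1, 0 in replicate 2, 0 with a pseudocount of 1, 1 with no filter, 0 with an intensity trend, 1 without control 2 and clone 1, 0 with line as a block, and 1 to 2 on leaving out 1 line. In the clone response (1) they became 2 and 0 in the replicates, 0 with a trend, 0 with line as a block, and 0 to 1 on leaving out 1 line. The difference of responses (0) became 1 without control 2 and clone 1, and 0 to 1 on leaving out 1 line. The DMSO level (0) became 2 and 5 in the replicates, 1 each with replicate as a block, the mean of all probe sets, a trend, and without control 2 and clone 1, and 0 to 4 on leaving out 1 line. The MDV3100 level (3) became 9 in replicate 2, 1 with replicate as a block, 7 without control 2 and clone 1, and 0 to 7 on leaving out 1 line. The sterol median moved to -0.20 and -0.084 in replicates 1 and 2 and -0.12 without control 2 and clone 1 for the control response (-0.16 to -0.12 on leaving out 1 line), to 0.20 in replicate 2 for the difference (0.11 to 0.15), and to 0.023 in replicate 1 for DMSO (-0.10 to -0.06). Leaving out 1 line gave 0.08 to 0.14 for MDV3100 and -0.01 to 0.01 for the clone response. The fatty acid median moved to -0.052 in replicate 1, -0.14 with the mean of all probe sets and -0.13 without control 2 and clone 1 for the control response (-0.13 to -0.053), and to -0.051 in replicate 1 and -0.048 with quantile normalization for the clone response (-0.03 to 0.01). It moved to 0.13 with the mean of all probe sets for the difference (0.025 to 0.11), to 0.10 and -0.17 in the replicates for DMSO (-0.12 to -0.08), and to 0.092 and -0.083 in the replicates and -0.086 without control 2 and clone 1 for MDV3100 (-0.082 to -0.0026). Over all genes, calls in the control response (718) ran from 0 with a trend to 1077 on leaving out 1 line, in the clone response (60) from 0 in replicate 2 to 239, in the difference (85) from 0 in replicate 2 to 122 with a pseudocount of 64, in DMSO (14) from 0 to 2126 and in MDV3100 (1062) from 8 to 2326 in replicate 2. With the pairs as replicates the first 3 of these counts were 306, 162 and 0. With replicate as a block those in DMSO and MDV3100 were 213 and 441. The cause was not tested. Of the members MVD, at a mean signal of 24.2, lay nearest the filter of 12.1.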
